A study of Sus scrofa with 23 samples.

Results

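GIMAP4, PTPN6, ARHGAP30 and SH3BP2 were followed through the backfat of 23 pigs fed 4 diets. These 4 genes of the 25322 gene rows in the count files encode proteins that act in signalling inside white blood cells. They were picked from measured values, since comparisons of the diet groups in these same pigs had placed them among the genes that differed. GIMAP4 and PTPN6 came from the comparisons of groups II and IV with group I, ARHGAP30 from group IV and SH3BP2 from group III. The paper also lists GIMAP4 as raised when groups II, III and IV were pooled against group I. Differences between diets are therefore given as a description of the genes, and the comparison of females with males and the variation within diet groups were tested instead.

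Backfat is the subcutaneous fat of the back. The pigs were crossbred fatteners kept in individual pens, and they were fed either with or without cDDGS, the dried maize residue that is left when ethanol is made, on top of an added oil or fat. There were 7 pigs in group I (-cDDGS+rapeseed oil), while group II (+cDDGS+rapeseed oil) had 6, group III (+cDDGS+beef tallow) had 5 and group IV (+cDDGS+coconut oil) had 5, with 12 females and 11 males in all. Females and males numbered 4 and 3 in group I, 3 and 3 in group II, 2 and 3 in group III and 3 and 2 in group IV. Each pig gave 1 library of ribosome-depleted total RNA, so that every cell type of the tissue added to the counts. The paper states that RNA free of degradation could not be obtained from these samples. No pigs were fed tallow or coconut oil without cDDGS, so in groups III and IV against group I the part of cDDGS and that of the fat cannot be told apart.

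The reads counted on genes numbered 2437172 in the shallowest library and 7979426 in the deepest. The rarest of the 4 genes, PTPN6, was represented by 12 to 87 reads per pig and SH3BP2 by 35 to 338, with GIMAP4 (29 to 249) and ARHGAP30 (21 to 117) between them. Expression is given as CPM, TMM-normalized counts per 1e6 reads, which is not corrected for gene length and is compared here only between pigs. The reads that mapped to 1 place outside annotated genes made up 56.8 ± 2.53, 62.5 ± 5.81, 56.8 ± 3.999 and 63.0 ± 5.05% (SD, n = 7, 6, 5 and 5) in groups I to IV. This share was thus higher in the same groups, II and IV, in which 3 of the genes were higher, and values with it as a covariate are given beside the results. Summed transcripts of skeletal muscle genes (ACTA1, MYL1, TNNC2 and TNNT1) ran from 1.33 to 2263 CPM and varied widely within each group.

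Leukocytes in fat tissue are mostly macrophages and lymphocytes that lie between the adipocytes. When their surface receptors bind a ligand, kinases of the Src and Syk families phosphorylate the receptor tails and adaptor proteins, which then gather enzymes such as phospholipase C gamma and the Vav exchange factors. Phosphatases reverse these steps. GIMAP4 is a GTPase of the immunity-associated family, known for its part in lymphocyte survival and death. PTPN6 encodes SHP-1, a tyrosine phosphatase of blood cells that binds inhibitory receptors and dampens signalling. ARHGAP30 encodes a GTPase-activating protein of blood cells. SH3BP2 encodes an adaptor that binds Src and Syk family kinases, Vav proteins and phospholipase C gamma, is marked for breakdown through tankyrases, and also acts in osteoclasts and other cells outside the blood.

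GIMAP4 (ENSSSCG00000027826) was about equally low without cDDGS and with cDDGS and tallow, and higher with cDDGS and rapeseed or coconut oil. In group I it ranged from 8.86 to 24.7 CPM with a median of 14.5 CPM, and in group II from 22.6 to 66.1 CPM with a median of 29.2 CPM. The 5 pigs of group III had 9.39, 14.8, 16.4, 18.6 and 18.9 CPM, and the 5 pigs of group IV had 22.8, 27.3, 31.0, 32.0 and 44.8 CPM. Every pig of group III was below every pig of groups II and IV, while group I overlapped both, through its single highest pig. The means were 15.2 ± 5.23, 35.1 ± 15.9, 15.6 ± 3.86 and 31.6 ± 8.23 CPM (SD, n = 7, 6, 5 and 5) in groups I to IV. In order of the means, neither groups II and IV nor groups III and I differed beyond their spread.

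PTPN6 (ENSSSCG00000025537) was likewise higher in groups II and IV than in groups I and III, at fewer reads. Group I ranged from 4.85 to 8.77 CPM with a median of 5.51 CPM, and group II from 7.38 to 19.9 CPM with a median of 10.99 CPM. Group III held 4.10, 4.23, 6.40, 6.79 and 8.97 CPM, against 9.71, 10.2, 10.9, 12.4 and 14.0 CPM in group IV. All 5 pigs of group IV were above all pigs of groups I and III, and 5 of the 6 pigs of group II were above them too. Of all genes, 0.516% had group IV wholly above group I, and the share with group IV wholly above group III was not computed. The means were 6.31 ± 1.41, 12.1 ± 4.40, 6.10 ± 2.02 and 11.4 ± 1.75 CPM (SD) in groups I to IV. Groups I and III were again neighbours that did not differ beyond their spread, as were groups II and IV.

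ARHGAP30 (ENSSSCG00000006372) was highest in the coconut oil group and stood less apart in the tallow group than GIMAP4 and PTPN6. In group I it lay between 7.59 and 13.7 CPM with a median of 9.07 CPM, and in group II between 9.47 and 30.5 CPM with a median of 16.3 CPM. In group III the pigs had 7.89, 10.3, 13.0, 14.4 and 18.1 CPM, and in group IV 14.5, 18.6, 19.4, 26.1 and 30.5 CPM. Group IV lay wholly above group I, but 1 of its pigs was inside the range of group III, and groups II and III overlapped widely. The means were 10.4 ± 2.50, 17.6 ± 7.46, 12.8 ± 3.91 and 21.8 ± 6.40 CPM (SD) in groups I to IV. Neighbours in the order of the means, IV, II, III and I, did not differ beyond their spread.

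SH3BP2 (ENSSSCG00000022004) had a pattern of its own, with its highest values in the rapeseed oil groups, with or without cDDGS. Group I ranged from 25.4 to 54.1 CPM with a median of 41.0 CPM, and group II from 19.5 to 57.5 CPM with a median of 30.3 CPM. Group III held 7.47, 14.9, 17.1, 25.2 and 25.5 CPM, and group IV 17.6, 18.6, 20.3, 29.1 and 40.3 CPM. Group III reached into the range of group I by the narrowest margin, since its highest pig was at 25.5 CPM and the lowest pig of group I at 25.4 CPM. The means were 39.1 ± 9.99 CPM in group I, 35.8 ± 17.8 CPM in group II, 25.2 ± 9.61 CPM in group IV and 18.0 ± 7.57 CPM in group III (SD), and neighbours in this order did not differ beyond their spread. Within group II the pigs fell on both sides, with 57.3 and 57.5 CPM in pigs 21 and 20 and 19.5 to 24.0 CPM in pigs 24, 22 and 17.

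**Figure D1:**
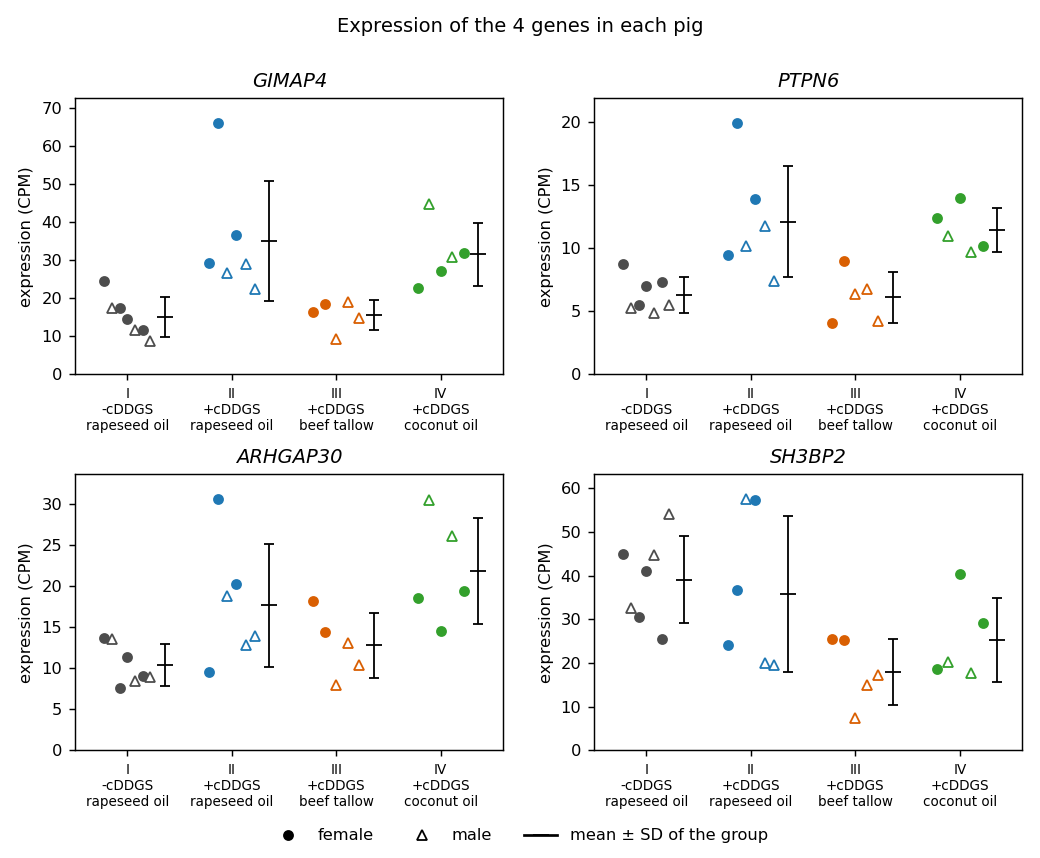
Expression in CPM (vertical axes, starting at 0) of GIMAP4, PTPN6, ARHGAP30 and SH3BP2 in each of the 23 pigs, by diet group; filled circles are females, open triangles are males, and the bars beside them are the mean ± SD of the group. For GIMAP4 the 5 pigs of group III (9.39 to 18.9 CPM) sit below all pigs of groups II and IV, and the highest point of group II is pig 19 at 66.1 CPM.

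A pig could stand out for several of the genes at once. Pig 19, a female of group II, had the highest value of its group for GIMAP4 (66.1 CPM), PTPN6 (19.9 CPM) and ARHGAP30 (30.5 CPM), whereas its SH3BP2 was in the middle of the group at 36.6 CPM. The spread between pigs of a group was mostly larger than the counting error. For GIMAP4 in group II the coefficient of variation was 45.2%, where the read counts alone would give 8.52%, and for SH3BP2 in group II it was 49.8% against 8.16%. PTPN6 came nearest to its counting error, with 22.4% against 18.4% in group I and 15.3% against 14.1% in group IV. Intervals and errors from read counts cover counting error only.

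The first comparison asked what cDDGS changed under the same oil, rapeseed, by setting group II against group I. The log2 fold changes were 1.20 for GIMAP4 (SE 0.25), 0.93 for PTPN6 (SE 0.22) and 0.75 for ARHGAP30 (SE 0.24), and SH3BP2 stood at -0.12 (SE 0.26). By edgeR's quasi-likelihood test with an adjusted p under 0.05 and a fold change above 1.3, 0 of the 4 genes were called (0.0291% of all genes tested), 3 had an unadjusted p under 0.05 (13% of all genes), and DESeq2 called 2 of them, GIMAP4 and PTPN6 (0.904% of all genes). As the genes were chosen on this contrast, nothing is read from these counts. The groups did not separate fully for any of the 4 genes (0 of 4, where 0.245% of all genes had group II wholly above group I). Without pig 1 of group I, the pig with the highest GIMAP4 of that group, GIMAP4 was called by edgeR (log2 fold change 1.36, adjusted p = 0.0421). With the share of reads outside genes as a covariate, the values were 0.80 for GIMAP4, 0.52 for PTPN6 and 0.36 for ARHGAP30, and without pig 19 they were 0.92, 0.73 and 0.52.

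Group IV against group I compared cDDGS with coconut oil to the diet without cDDGS. Here ARHGAP30 had a log2 fold change of 1.05 (SE 0.21), GIMAP4 of 1.04 (SE 0.22) and PTPN6 of 0.85 (SE 0.18), while SH3BP2 was on the other side at -0.62 (SE 0.23). By edgeR 0 of the 4 were called (0% of all genes), all 4 had an unadjusted p under 0.05 (14.2% of all genes), and DESeq2 called 3, all but SH3BP2 (1.85% of all genes). For PTPN6 and ARHGAP30 group IV was wholly above group I (2 of 4, against 0.516% of all genes). These counts, too, come from the contrast that chose the genes. Without pig 53 of group IV, edgeR called GIMAP4 (adjusted p = 0.0469) and ARHGAP30 (adjusted p = 0.0297). The share of reads outside genes as a covariate gave 0.95 for GIMAP4, 0.88 for PTPN6, 0.84 for ARHGAP30 and -0.33 for SH3BP2.

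Group III against group I did the same for beef tallow, and of the 4 genes SH3BP2 had the largest difference. Its log2 fold change was -1.11 (SE 0.26), whereas GIMAP4 stood at 0.03 (SE 0.24), PTPN6 at -0.04 (SE 0.23) and ARHGAP30 at 0.28 (SE 0.22). By edgeR 0 of the 4 were called (0% of all genes), 1 had an unadjusted p under 0.05 (7.96% of all genes) and DESeq2 called that gene, SH3BP2 (0.115% of all genes). No gene of the 4 had group III wholly below group I (0 of 4, against 0.127% of all genes). The SH3BP2 value lay between -1.28 and -0.92 when any single pig was omitted.

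The tallow group was then set against the other cDDGS groups, which asked whether the fat mattered once cDDGS was fed. All 4 genes were lower in group III than in the mean of groups II and IV, with log2 fold changes of -1.09 for GIMAP4 (SE 0.24), -0.93 for PTPN6 (SE 0.23), -0.75 for SH3BP2 (SE 0.32) and -0.62 for ARHGAP30 (SE 0.25). Again 0 of 4 were called by edgeR (0% of all genes), 4 had an unadjusted p under 0.05 (5.11% of all genes), and DESeq2 called GIMAP4 alone (0.127% of all genes). GIMAP4 was also the 1 gene of the 4 with group III wholly below both other groups, where 0.0453% of all genes were so. The genes were singled out with this pattern in view, and the contrast shares its pigs with those above, so its values describe the same measurements again. Against group II alone the values were -1.16 for GIMAP4, -0.97 for PTPN6, -0.998 for SH3BP2 and -0.47 for ARHGAP30, and against group IV alone -1.01, -0.89, -0.50 and -0.77 in the same order. SH3BP2 was therefore further from the rapeseed oil group and ARHGAP30 further from the coconut oil group, but between groups IV and II themselves SH3BP2 differed by -0.52 (SE 0.32) and ARHGAP30 by 0.29 (SE 0.28), with unadjusted p-values of 0.134 and 0.318 in edgeR. With sex as a covariate, SH3BP2 in group III against group IV was at -0.37. With the share of reads outside genes as a covariate, the contrast with groups II and IV was -0.82 for GIMAP4, -0.73 for PTPN6, -0.69 for SH3BP2 and -0.21 for ARHGAP30, and against group II alone ARHGAP30 changed sign, from -0.47 to 0.0060.

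**Figure D2:**
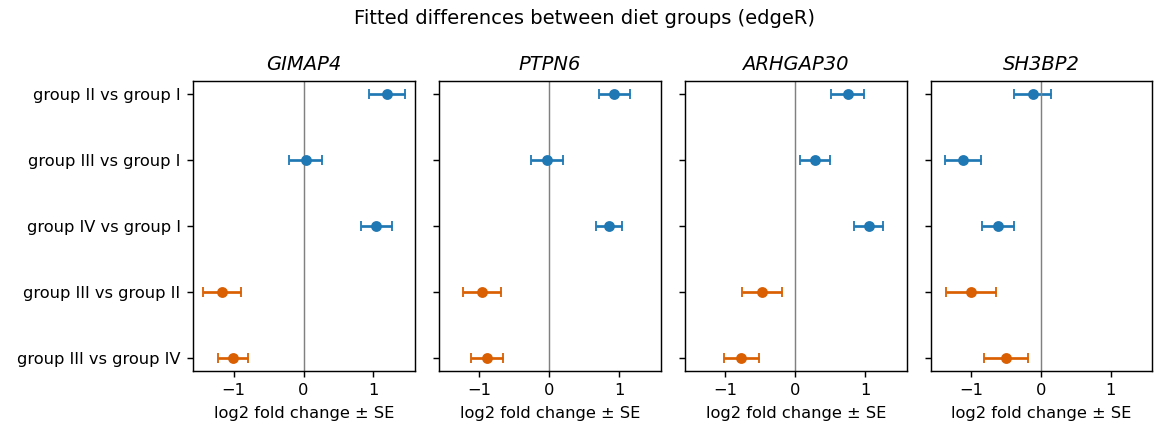
Log2 fold changes fitted with edgeR (points) with their standard errors (bars) for the 4 genes, with group II, III or IV over group I in blue and group III over group II or IV in orange; the vertical line marks no difference. GIMAP4 and PTPN6 lie near 0 for group III vs group I (0.03 and -0.04) and near 1 or -1 elsewhere, while SH3BP2 has its largest difference there (-1.11).

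Females and males were compared across all diets with diet group as a covariate, a contrast that had no part in the choice of the genes. PTPN6 ran from 4.10 to 19.9 CPM in the 12 females (median 9.22 CPM) and from 4.23 to 11.8 CPM in the 11 males (median 6.79 CPM). The female mean of PTPN6 was higher in each of the 4 groups, with 7.13 against 5.21 CPM in group I, 14.4 against 9.79 CPM in group II, 6.53 against 5.81 CPM in group III and 12.2 against 10.3 CPM in group IV. The log2 fold change of females over males was 0.38 (SE 0.15), but it did not pass adjustment in edgeR (adjusted p = 0.193). GIMAP4 (0.28, SE 0.18, adjusted p = 0.422), SH3BP2 (0.29, SE 0.21, adjusted p = 0.486) and ARHGAP30 (0.08, SE 0.18, adjusted p = 0.853) did not pass edgeR's test either. In all, 0 of 4 genes were called by edgeR (0.954% of all genes), 1 had an unadjusted p under 0.05 (17.7% of all genes) and DESeq2 called 0 (2.71% of all genes). The 3 tested skeletal muscle genes were lower in females, with a median log2 fold change of -2.57. All 3 had an unadjusted p under 0.05 in edgeR (8.56% of all genes were negative at that limit) and 0 were called. The part of muscle in the differences between sexes was not tested. GIMAP4 and ARHGAP30 were lower in the females than in the males of group IV (27.4 against 37.9 CPM and 17.5 against 28.3 CPM), while the other groups had the female mean above the male mean or, for ARHGAP30 in group I, about level with it (10.4 against 10.3 CPM), but group IV held only 2 males and this difference between groups was not tested.

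The label of leukocyte genes was checked against the variation between pigs of the same diet, from which the group means had been removed. Each gene was compared with the other 3 and with the summed CPM of 7 lists of cell type markers, 34 relations in all, by permutation of pigs within groups. GIMAP4 was related to the pan-leukocyte genes (11 measured genes, among them PTPRC, LCP1, EVI2B and CD53, which most white blood cells express), with r = 0.78 (Spearman correlation 0.74, adjusted permutation p = 0.00136, n = 23). For ARHGAP30 the same r was 0.66 (Spearman correlation 0.69, adjusted permutation p = 0.0139), and GIMAP4 and ARHGAP30 were related to each other with r = 0.71 (Spearman correlation 0.65, adjusted permutation p = 0.00986). PTPN6 was related to the macrophage genes (MRC1, C1QA, LYVE1, CD14 and others) with r = 0.62 (Spearman correlation 0.63, adjusted permutation p = 0.0139), and its r of 0.46 with the pan-leukocyte genes did not pass adjustment (adjusted permutation p = 0.130). These 4 relations were the ones that passed. GIMAP4 with the macrophage genes had r = 0.55 (Spearman correlation 0.55, adjusted permutation p = 0.0665) and did not pass, nor did ARHGAP30 with them (r = 0.28).

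Leaving out the 2 pigs farthest from the median of the measure, r became 0.65 for GIMAP4 and 0.52 for ARHGAP30 with the pan-leukocyte genes (without pigs 1 and 19), 0.56 between GIMAP4 and ARHGAP30 (without the same pigs) and 0.64 for PTPN6 with the macrophage genes (without pigs 7 and 8). Within sex as well as diet the same relations had r = 0.77, 0.72, 0.71 and 0.52. Without pig 19 alone, ARHGAP30 with the pan-leukocyte genes (r = 0.57) and PTPN6 with the macrophage genes (r = 0.57) no longer passed adjustment (adjusted permutation p = 0.0623 for both). The relation of GIMAP4 and PTPN6, r = 0.50 with an adjusted permutation p of 0.145, rested on pigs 1 and 19, without which r was 0.14. That of PTPN6 and ARHGAP30 had r = 0.32 (adjusted permutation p = 0.485), and r was 0.02 without pigs 19 and 43. In bulk tissue, fewer leukocytes and less RNA of these genes per leukocyte cannot be told apart.

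**Figure D3:**
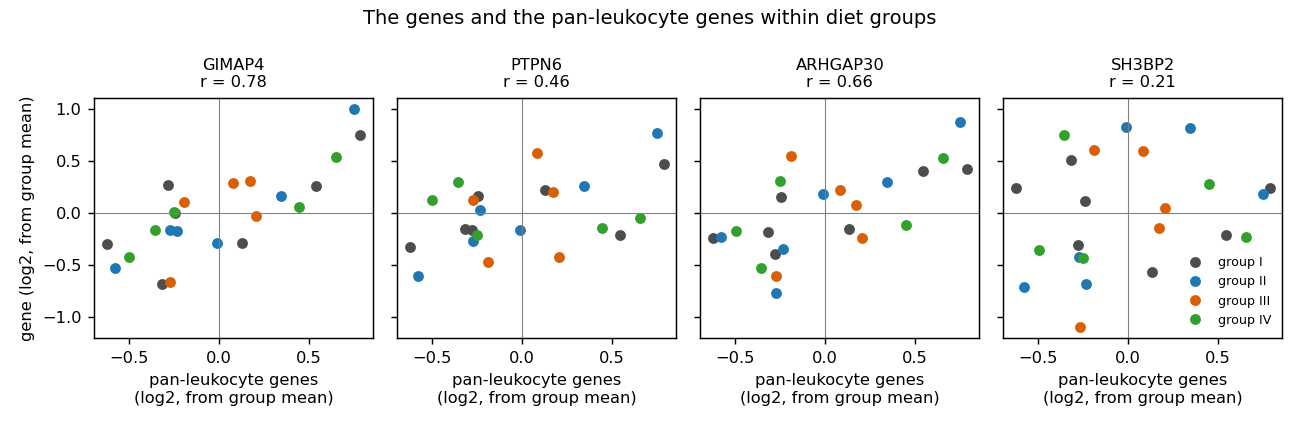
Each point is a pig, placed by its deviation from its diet group's mean on a log2 scale, for the summed pan-leukocyte genes (horizontal axis) and for GIMAP4, PTPN6, ARHGAP30 or SH3BP2 (vertical axis), with colours for the diet groups. The points rise together for GIMAP4 (r = 0.78) and ARHGAP30 (r = 0.66), less so for PTPN6 (r = 0.46), and are scattered for SH3BP2 (r = 0.21). Without pigs 1 and 19, r was 0.17 for both PTPN6 and SH3BP2.

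For SH3BP2 no relation passed adjustment, which with 23 pigs does not decide the label. Its r with the pan-leukocyte genes was 0.21, with the macrophage genes -0.05, and with the other 3 genes between 0.20 and 0.38. Without pigs 1 and 19, r with the pan-leukocyte genes was 0.17 for SH3BP2 and also 0.17 for PTPN6. The highest r of SH3BP2 was that with the adipocyte genes (PLIN1, PLIN4, LIPE, PNPLA2 and CIDEC, which coat or break down the lipid droplet), r = 0.58 and Spearman correlation 0.59, at an adjusted permutation p of 0.0665. GIMAP4, PTPN6 and ARHGAP30 had r of -0.09, -0.23 and 0.09 with the same adipocyte genes. With T and NK cell, B and plasma cell, mast cell and endothelial genes, the 4 genes gave r between -0.41 and 0.33, and none of these 16 relations passed.

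The genes whose expression ran most like that of each gene over the 23 pigs, on log2(CPM + 0.5), were also listed. These correlations hold the differences between diets on which the genes were chosen, and are a description. For GIMAP4 they were DOCK2 (r = 0.84), an exchange factor of leukocytes, PTPRC (r = 0.83), the phosphatase CD45, FCER1G (r = 0.82), the gamma chain shared by Fc receptors, ARHGAP30 (r = 0.81) and PTPN6 (r = 0.81). For PTPN6 they were GIMAP4, ARAP1 (r = 0.79), the lysosomal reductase IFI30 (r = 0.77), the Ras exchange factor RASGRP4 (r = 0.76) and EMILIN2 (r = 0.76). For ARHGAP30 they were HCLS1 (r = 0.82), an actin-binding protein of blood cells, GIMAP4, the kinase RPS6KA1 (r = 0.78), the G protein subunit GNAI2 (r = 0.78) and VASH1 (r = 0.77).

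For SH3BP2 the most similar genes were ADCY5 (r = 0.83), an adenylyl cyclase, COL27A1 (r = 0.78), a collagen, CREB3L1 (r = 0.78), a transcription factor, HAS2 (r = 0.78), which makes hyaluronan, and PLEKHA6 (r = 0.78). ADCY5 averaged 95.4, 70.8, 47.7 and 57.5 CPM in groups I to IV, an order like that of SH3BP2, and HAS2 10.4, 6.93, 4.31 and 4.50 CPM. Among 11038 genes ordered by their r with GIMAP4, with a symbol or without, ARHGAP30 came in place 4, PTPN6 in place 6 and SH3BP2 in place 3627. With the group means removed, ARHGAP30 came in place 19, PTPN6 in place 370 and SH3BP2 in place 2158. Ordered instead by r with ARHGAP30, group means again removed, SH3BP2 (r = 0.38, place 1148) was nearer than PTPN6 (r = 0.32, place 1717). Several of these neighbours (PTPRC, FCER1G, EMILIN2, GNAI2 and COL27A1) had also been picked out by the diet comparisons of these pigs.

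**Figure D4:**
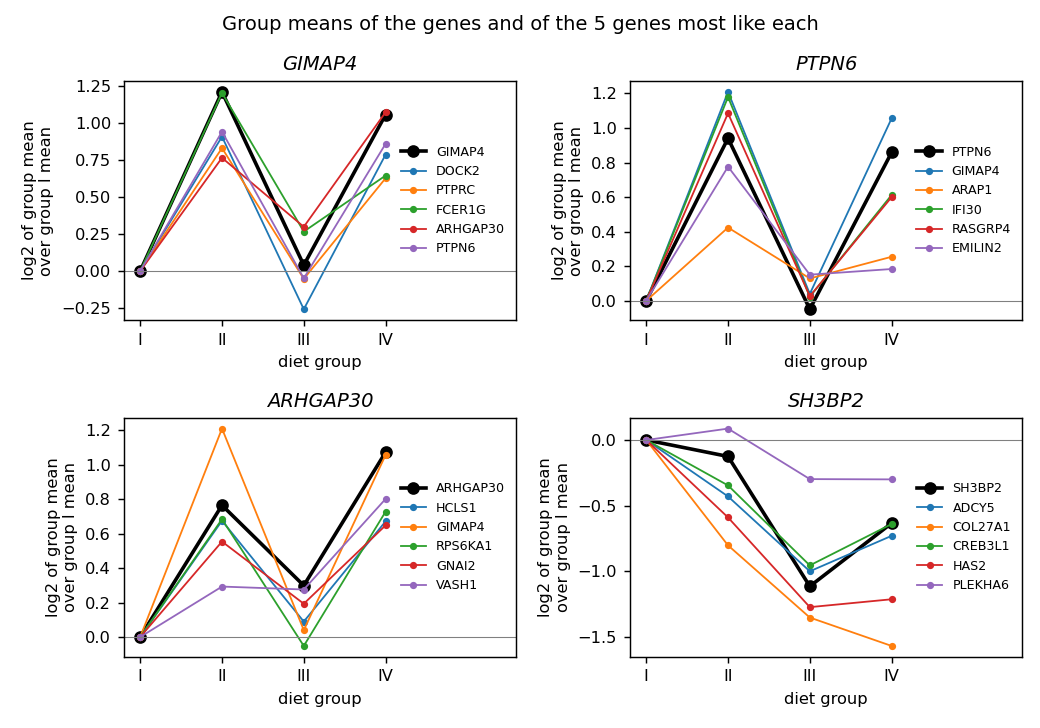
Mean expression of each gene (black) and of the 5 named genes most correlated with it over the 23 pigs (colours), as the log2 ratio of the mean of diet group I, II, III or IV over that of group I; lines join the means of 1 gene. GIMAP4, PTPN6 and ARHGAP30 and their neighbours are lower in groups I and III than in groups II and IV, whereas SH3BP2, ADCY5 and CREB3L1 are lowest in group III.

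The pan-leukocyte genes themselves had higher means in groups II and IV than in groups I and III, as GIMAP4 and PTPN6 did. Their summed CPM was 146 ± 54.8, 225 ± 79.5, 131 ± 19.3 and 225 ± 83.0 (SD) in groups I to IV. The 5 pigs of group III (108 to 150) were below the 5 pigs of group IV (151 to 336) only by a narrow margin. They lay inside the range of group I (89.7 to 239) and overlapped group II (144 to 361). In group II against group I, 11 of the 11 genes had positive log2 fold changes with a median of 0.52 (0.00 over all genes tested) and 4 of the positive ones had an unadjusted p under 0.05 (6.55% of all genes were positive at that limit). In group III against groups II and IV none of the 11 was positive, the median was -0.53 (-0.00 over all genes) and 5 had an unadjusted p under 0.05 (2.54% of all genes were negative at that limit), PTPRC (-0.78) and LCP1 (-1.20) among them. None of the 11 was called by edgeR in a diet comparison, and DESeq2 called 1 in group II (0.904% of all genes) and 1 in group IV (1.85% of all genes) against group I. In group II against group I the median of the list was 0.13 with the share of reads outside genes as a covariate, 0.34 without pig 19 and 0.77 without pig 1, and in group III against groups II and IV it was -0.32 with that covariate. PTPRC and LCP2 of this list had been picked out in the same pigs.

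The share of each gene relative to the pan-leukocyte sum was given as a log2 ratio, in which a change common to all leukocyte genes drops out. LCP1 and PTPRC were the largest parts of that sum, at 56.6 and 53.7 CPM on average, so the ratio depends most on them. For PTPN6 the mean ratio was -4.48 ± 0.40, -4.22 ± 0.15, -4.48 ± 0.50 and -4.24 ± 0.65 (SD) in groups I to IV, within the spread of the pigs throughout. For GIMAP4 it was -3.26 ± 0.39, -2.71 ± 0.20, -3.10 ± 0.31 and -2.80 ± 0.26, so the gap between groups III and II was 0.39 on this scale. ARHGAP30 stood at -3.77 ± 0.30 and -3.71 ± 0.30 in groups I and II and at -3.41 ± 0.49 and -3.34 ± 0.44 in groups III and IV. SH3BP2 had its highest ratio in group I, -1.87 ± 0.70, and -2.73 ± 0.55, -2.98 ± 0.68 and -3.16 ± 0.73 in groups II to IV.

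Markers of single cell types differed in how they followed the diets. The macrophage genes summed to 99.0 ± 50.0, 214 ± 68.3, 135 ± 52.4 and 137 ± 45.1 CPM (SD) in groups I to IV, so that their high point was group II. In group II against group I, 5 of the 6 tested genes were positive with unadjusted p under 0.05 (6.55% of all genes), among them C1QA (1.51), a subunit of complement C1q, MRC1 (1.18), the mannose receptor, LYVE1 (1.04) and CD14 (0.70). MS4A7, named after its values were seen, had a log2 fold change of -1.46. By edgeR 0 of the 6 were called in this comparison (0.0291% of all genes), and DESeq2 called 3 (0.904% of all genes). Between females and males, LYVE1 was the 1 gene of these lists that was called, higher in females with a log2 fold change of 0.98 (SE 0.23, edgeR adjusted p = 0.0386). C1QA, MRC1, MS4A7 and several genes of the other lists had been picked out in these same pigs.

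The T and NK cell genes summed to between 48.9 and 55.2 CPM on average in the 4 groups. CD247 averaged 29.4 CPM over the 23 pigs, so the sum and its relations rest largely on it. CD3D, LCK, CD8A, CD5 and CD4 averaged only 0.56 to 1.12 CPM and did not pass the low-count filter. Of the list, CD247 and CD2 had log2 fold changes of 0.09 and -0.29 in group III against groups II and IV, while GNLY, the granulysin of cytotoxic lymphocytes, stood at -1.32 with an unadjusted p under 0.05. Transcripts of B and plasma cells (CD22, MS4A1) and of neutrophils (S100A8, ELANE) were near the limit of detection, at summed means of 1.27 to 2.25 and 1.15 to 2.03 CPM, with CSF3R at 0 in all 23 pigs, and none of these genes could be tested. The mast cell genes summed to 70.2 to 103 CPM on average, nearly all of it KIT, with HDC and HPGDS at or near 0. Keratinocyte genes were at 5.27 to 6.92 CPM on average, nearly all of it DSP and KRT10. KRT5, KRT14 and LOR had no identifier, so this sum does not give the level of skin transcripts in the samples. The endothelial genes (PECAM1, ERG, KDR, FLT1 and others) averaged 964 to 1164 CPM and the adipocyte genes 2750 to 3497 CPM, with a median log2 fold change of 0.02 and 0.07 in group III against groups II and IV. Against group I, 0 of the 5 adipocyte genes were positive in any cDDGS group, with medians of -0.35, -0.33 and -0.38 in groups II to IV. With an unadjusted p under 0.05, 2, 1 and 4 of them were negative in these comparisons (6.41%, 3.90% and 5.98% of all genes). The part of adipocyte transcripts in the values of SH3BP2, which also had negative log2 fold changes there, was not tested.

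The relatives of GIMAP4 lay on the same side as GIMAP4. GIMAP6 averaged 5.17, 8.55, 6.02 and 7.85 CPM in groups I to IV and GIMAP8 2.01, 3.04, 1.94 and 3.68 CPM, while GIMAP2 was at 0 in 14 of the 23 pigs. In group III against groups II and IV the log2 fold changes were -0.44 for GIMAP6 (SE 0.22) and -0.76 for GIMAP8 (SE 0.31), the latter with an unadjusted p under 0.05. Genes of this family resemble each other, and reads that mapped to several places were not counted, so the division of reads among them is uncertain.

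Of 17 receptors known to dock SHP-1, the product of PTPN6, 5 had an identifier and 1 was tested. It was PECAM1, which endothelium also expresses, with a mean of 634 to 763 CPM over the groups and a log2 fold change of 0.04 (SE 0.14) in group III against groups II and IV. Of a list of other regulators of receptor signalling, 10 were tested, and their median log2 fold change was 0.25 in group II against group I (0.11 with the share of reads outside genes as a covariate) and -0.03 in group III against groups II and IV. PTPRC, which is also in the pan-leukocyte list, was the gene farthest from 0 in both comparisons (0.83 and -0.78). PTPN11, which encodes the widely expressed relative SHP-2, averaged 468, 442, 495 and 563 CPM in groups I to IV with its highest mean in group IV. CBLB, a ubiquitin ligase, and PTPN2 stood at 0.08 and 0.05 in group III against groups II and IV, and INPP5D, the phosphatase SHIP1 of blood cells, at -0.39 (SE 0.22). INPP5D was named after its values were seen.

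Downstream of the antigen and Fc receptors, 18 genes were tested in group II against group I, of which 16 were positive with a median of 0.44, 7 being positive and 1 negative with an unadjusted p under 0.05 (6.55% and 6.41% of all genes). With the share of reads outside genes as a covariate that median was 0.24, with 2 positive and 1 negative at the same limit. FCER1G and LCP2, both among the 7 positive genes, had been picked out in the same pigs, and LCP2 is also in the pan-leukocyte list. In group III against groups II and IV, 3 of 18 were positive, the median was -0.30 and 7 were negative with an unadjusted p under 0.05 (2.54% of all genes), and with the covariate the median was -0.21 with 2 such genes. The members with many reads had differences nearer 0, with -0.23 for FYN, -0.16 for PLCG1 and -0.01 for LYN in that contrast. NFATC2, a transcription factor, lay on the other side of the list with log2 fold changes of -1.28, -1.19 and -1.27 in groups II, III and IV against group I. It averaged 81.3 ± 66.0 CPM (SD, n = 7) in group I and 33.3, 35.5 and 33.5 CPM in groups II to IV. All 3 values thus share the wide spread of group I. SYK had too few reads to be tested, and BTK was listed at 0 in all 23 pigs.

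Of the partners of SH3BP2, those with the most reads had differences near 0 in group III against group I. TNKS and TNKS2, the tankyrases, had log2 fold changes of 0.03 (SE 0.09) and -0.02 (SE 0.11) in group III against group I, and ABL1 and FYN 0.11 (SE 0.19) and -0.02 (SE 0.20), where SH3BP2 was at -1.11. Over the 9 tested partners the median was 0.03 in group III against group I and -0.16 in group III against groups II and IV (0.05 with the share of reads outside genes as a covariate). VAV1, an exchange factor of blood cells named after its values were seen, had log2 fold changes of -0.68 (SE 0.30) in group III against groups II and IV and -0.88 (SE 0.29) in group III against group II, both with an unadjusted p under 0.05, and of -0.18 (SE 0.32) in group III against group I. Their sum was 381 ± 40.2, 402 ± 35.7, 394 ± 48.7 and 380 ± 24.9 CPM (SD) in groups I to IV.

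The share of reads outside genes, the number of reads on genes and the RNA integrity number were compared with the 4 genes within diet groups in the same way, 12 relations in all. The largest was that of ARHGAP30 with the share of reads outside genes (r = 0.59, Spearman correlation 0.53, permutation p = 0.0118, adjusted p = 0.141, n = 23), and r was 0.58 without the 2 pigs farthest from the median. GIMAP4, PTPN6 and SH3BP2 had r of 0.38, 0.39 and 0.12 with that share. With the number of reads on genes, r lay between -0.13 and 0.28. With the RNA integrity number it lay between -0.24 and -0.12, and between -0.40 and -0.22 without the 2 pigs farthest from the median. None of the 12 relations passed adjustment, and the part of library quality in the differences between diets was tested only through covariate fits. Those with the share of reads outside genes are given above. With the RNA integrity number as a covariate, group II against group I was at 1.27 for GIMAP4, 1.02 for PTPN6, 0.86 for ARHGAP30 and -0.05 for SH3BP2. The first 3 were further from 0 than without a covariate.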

How the data were processed

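Ensembl gene counts of backfat RNA-seq from 23 pigs were used. The authors made stranded single-end libraries of total RNA depleted of ribosomal RNA, removed adapters by FLEXBAR, aligned by TopHat and assigned reads to genes by HTSeq. What they deposited is raw counts, without normalization, in 25322 gene rows and 5 summary rows per pig. The HTSeq strand setting and how the repeated sequencing runs were merged are not given in the sources used here. Between 2437172 and 7979426 reads per pig fell on genes, so genes of a few CPM rest on few reads. No 2 pigs of 1 group agreed within counting noise (56 pairs, lowest chi-square/df 7.02), so each pig was 1 sample.

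Groups came from the diet labels. Counts were normalized by TMM and tested with edgeR 4.0.16 (filterByExpr, glmQLFit, glmQLFTest, Benjamini-Hochberg adjustment over all genes tested) in R 4.3.3, on the groups compared. The fold limit was 1.3. The females vs males model had diet group as covariate. Correlations used log2(CPM + 0.5) less the group mean, with 100000 permutations of pigs within groups (numpy 2.4.6, scipy 1.17.1). Alternatives were DESeq2 1.42.0, limma-voom 3.58.1, median-ratio factors, other filters, covariates (sex, share of reads outside genes, and the RNA integrity number from the study's supplement), 1 fit of all pigs and leaving out each pig. Tools were tested on simulated data. Symbols came from a reference table that names 11804 of the identifiers. Lists held 225 entries in 17 lists, of which 147 had an identifier, and the results of 2 lists drawn up for ARHGAP30 are not reported here. Besides the 4 genes, the text names the 5 genes with a symbol most correlated with each, and from each list the genes called or else those with the highest mean CPM. The members and lists were chosen with earlier results of these data known, and 3 comparisons among groups II, III and IV were added after the data were seen. Chromosomal positions and sequences were not used here.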

Additional observations from a re-analysis of the deposited data

Results flagged for a closer look

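In groups of 4 to 10 pigs, 44 sets of values (the 4 genes and the summed marker lists in each diet group) were searched for a pig far from the rest, and 2 were found. Chance alone flags about 1 set in 20. GIMAP4 was at 66.076 CPM in pig 19 of group II, where the gap to the next pig was 0.674 of the group's whole range, above Dixon's critical value for 6 pigs. PTPN6, ARHGAP30 and the pan-leukocyte sum (361 CPM) were also highest in pig 19 within group II. The summed T and NK cell genes were at 71.6493 CPM in pig 48 of group III, where the gap was 0.958 of the range, above the value for 5 pigs, and none of the 4 genes was highest in that pig within its group.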

How the results depend on the processing

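With edgeR, 0 of the 4 genes were called in each diet comparison, and only the choice of DESeq2's Wald test or the loss of a pig altered this. DESeq2 called 2 in group II vs group I, 1 in group III vs group I, 3 in group IV vs group I and 1 in group III vs groups II and IV. With each pig left out, the number called ranged from 0 to 1 in group II vs group I and from 0 to 2 in group IV vs group I, and stayed at 0 in the other comparisons, females vs males included. The number of relations past adjustment ranged from 3 to 6 with each pig left out, and was 4 with median-ratio factors and with a pseudocount of 2 CPM. Signs turned in the following differences, none of them called. PTPN6 in group III vs group I was at 0.081 with limma-voom and 0.041 with sex as covariate. ARHGAP30 in group III vs group II, -0.47 without covariates, was at 0.0060 with the share of reads outside genes as covariate. ARHGAP30 in females vs males was at -0.025 with limma-voom and -0.056 with that share. With each pig left out, SH3BP2 in group II vs group I ran from -0.31 to 0.0050, GIMAP4 in group III vs group I from -0.062 to 0.19, PTPN6 there from -0.22 to 0.068, GIMAP4 in group IV vs group II from -0.33 to 0.12, PTPN6 there from -0.19 to 0.11 and ARHGAP30 in females vs males from -0.044 to 0.17. The cause of these shifts was not tested. No paired analysis was possible because the groups hold different pigs and their numbers pair none of them. Groups of 5 to 7 pigs and 12 to 338 reads per gene limit the precision.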
